A study of Mus musculus with 5 samples.

Results

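Transcription factors of the ETS family were followed in mouse mammary glands of an outbred strain, collected less than 12 hours after the dams had given birth. The 9 genes were the rows with the symbols Elf5, Elf3, Ehf, Spdef, Elf1, Elf2, Elf4, Ets1 and Ets2, all 9 present among the 22609 genes of the table. RNA sequencing compared 2 libraries of wild-type glands with 3 libraries of glands described as Nfib-null, a term for loss of the gene of nuclear factor I/B, a transcription factor. The series asks how this factor and STAT5, which carries the prolactin signal, share control of the expression that pregnancy induces.

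Each group was given by a single column of mean RPKM, reads per kilobase of gene corrected for library size, so no spread between animals or libraries could be computed and no test was possible. The column named Nfib-WT carries the name of the wild-type libraries. The other, NfibFF-WC, was taken as the Nfib-null group because it was the one column left, and the labels spell out neither that name nor the cells in which the gene was lost. In NfibFF-WC 68.2% of the 12205 values written to 10 decimals ended in the repeating digits that division by 3 leaves. In Nfib-WT 0% of 67 such values did. The group with 3 libraries is Nfib-null, so these digits go with the assignment. Nfib itself reached 33.7 RPKM in wild-type and 55.3 RPKM in Nfib-null glands. The targeted gene was thus higher as deposited in the column taken as Nfib-null, and does not bear out that assignment. After the main scaling described below its log2 difference, Nfib-null less wild type, was 0.30, within 2-fold. With scaling to luminal markers it was −0.83, so its direction depended on the scaling. A whole-gene value does not show single exons, and these were not examined.

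ETS factors share a DNA-binding domain that recognises a short core of the letters GGAA, and their other domains decide with which partners they act. Elf5, Elf3 and Ehf form an epithelial branch of the family. In the mammary gland Elf5 acts downstream of prolactin and drives luminal progenitors towards milk-secreting alveolar cells during pregnancy. Spdef is known for secretory cells of mucous epithelia, Elf1, Elf2 and Elf4 for broad and blood-cell expression, and Ets1 and Ets2 as factors that the RAS and MAP kinase pathway phosphorylates.

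The promoters of Elf5 and Elf3 are shown because these are the members that stood at least 2-fold apart between the columns, in opposite directions. The sequences are from RefSeq (GRCm38.p6). Promoters of 7 of the 9 members, 11 in all, were matched by symbol, and those of Ehf and Ets1 were not analysed here. Each run covers the 250 bases before an annotated start, 5′ to 3′ on the gene's strand, with the ETS core GGAA or its reverse complement TTCC in capitals. For Elf5 these are chr2:103411848-103412097 and chr2:103423818-103424067, both on the plus strand, and for Elf3 chr1:135258473-135258722 on the minus strand.
Elf5 start 1: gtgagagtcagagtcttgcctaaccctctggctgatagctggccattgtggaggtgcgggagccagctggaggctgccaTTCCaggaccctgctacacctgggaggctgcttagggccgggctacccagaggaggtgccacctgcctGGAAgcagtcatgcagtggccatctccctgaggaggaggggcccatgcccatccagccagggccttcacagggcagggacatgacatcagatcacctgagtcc
Elf5 start 2: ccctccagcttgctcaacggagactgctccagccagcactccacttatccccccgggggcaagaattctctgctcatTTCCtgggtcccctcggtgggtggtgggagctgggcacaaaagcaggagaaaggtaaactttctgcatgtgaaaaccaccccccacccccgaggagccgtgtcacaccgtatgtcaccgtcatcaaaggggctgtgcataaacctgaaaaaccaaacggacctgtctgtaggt
Elf3 start 1: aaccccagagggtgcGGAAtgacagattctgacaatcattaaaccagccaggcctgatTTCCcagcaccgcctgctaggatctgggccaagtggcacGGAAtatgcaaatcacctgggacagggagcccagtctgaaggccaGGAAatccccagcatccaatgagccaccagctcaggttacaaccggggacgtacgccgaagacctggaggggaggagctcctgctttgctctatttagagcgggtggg

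The Elf5 promoters held 2 and 1 copies of the ETS core and the Elf3 promoter 4, counting both strands. Of all 32851 promoters searched over the same length, 93.4% held at least 1 copy, with a median of 3. Letters of a STAT site (TTCNNNGAA) were found in 1 of the 11 member promoters, a promoter of Elf2, 213 bases before the start, where they overlap an ETS core at 208, and in 7.02% of all promoters. A full NFI site, TTGGC and, 5 bases on, GCCAA, was in none of the 11 and in 12 of all 32851. The shorter NFI letters TTGGC or GCCAA were found once, in the Elf3 promoter 165 bases before the start, and in 41.5% of all promoters. These are matches of letters and not binding sites.

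Elf5 was lower and Elf3 higher in the Nfib-null column, each by at least 2-fold after scaling, and the other 7 members lay within 2-fold. Columns were divided by their median-ratio factors, 1.15 for Nfib-null and 0.867 for the wild type, and differences are taken after adding 1 to the scaled RPKM and log2 transformation, as Nfib-null less wild type. A gene was called higher or lower from a log2 difference of 1 in size. Of the 12511 genes kept, which had means from 1 RPKM upwards, 6.95% were called higher and 5.97% lower. With 1 of 9 members called in each direction, the counts carry little information beyond that background. The median log2 difference was 0.28 for the 9 members and 0.00 for all genes kept. All 9 members passed the minimum.

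**Figure D1:**
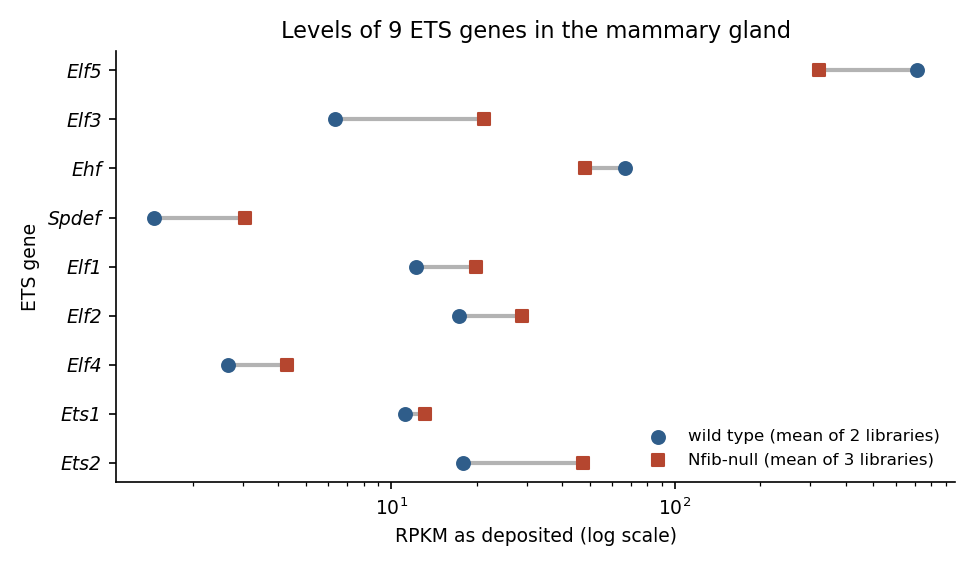
RPKM as deposited (log axis) for the 9 ETS genes, with a circle for the wild-type column and a square for the Nfib-null column, each the authors' group mean. Elf5 at 711 and 321 RPKM lies far to the right of the others, and Elf5 and Ehf are the members whose square lies left of the circle.

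Elf5, the alveolar factor, reached 711 RPKM in wild-type and 321 RPKM in Nfib-null glands. It was the member of highest level in both columns, 60th of all 22609 genes in the wild type and 171st in the Nfib-null column. The wild-type level was 2.22 times the Nfib-null level as deposited and 2.95 times after scaling, a log2 difference of −1.56. Only 282 of the 12511 genes kept had a lower log2 difference. Within the ETS family, Elf5 made up 75.3% of the summed RPKM of 26 genes in wild-type and 50.2% in Nfib-null glands. That share does not depend on how the columns are scaled to each other. In bulk tissue, fewer cells of a type and less RNA per cell cannot be told apart.

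Ehf, a related epithelial factor, reached 66.5 RPKM in wild-type and 48.2 RPKM in Nfib-null glands. It held the second-highest level of the 9 in both columns. Its log2 difference was −0.86 and remained below 0 in all 5 scalings, although it did not reach 2-fold in 4 of them. In the RefSeq annotation Ehf and Elf5 are neighbours, with 2 annotated genes and 0 protein-coding genes between them. The ratio of Elf5 to Ehf was 6.66 in the Nfib-null column and 10.7 in the wild type, so Elf5 stood 1.61 times lower relative to its neighbour.

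Elf3, the remaining member of the epithelial branch, is known as a factor of differentiating and inflamed epithelia. It reached 6.34 RPKM in wild-type and 21.2 RPKM in Nfib-null glands, a ratio of 3.34 as deposited and 2.51 after scaling, with a log2 difference of 1.22. Of the genes kept, 532 had a higher log2 difference. Its place among the 9 members by RPKM moved from 7 in the wild type to 5 in the Nfib-null column. Among the 3 genes of the epithelial branch, Elf5 and Ehf thus had values below 0 and Elf3 above. Elf5 was 112 times as abundant as Elf3 in wild-type and 15.2 times in Nfib-null glands, a 7.40-fold smaller ratio. The ratio of Elf3 to Ehf was 0.0953 in wild-type and 0.439 in Nfib-null glands.

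Spdef had the lowest RPKM of the 9 in both columns, with 3.06 in Nfib-null and 1.46 in the wild type. Its log2 difference was 0.44, within 2-fold, and was −0.34 with scaling to luminal markers. At the read depth estimated from the smallest steps between low values, the wild-type value rests on about 41.4 reads per library, and its counting error over the group is about 11.0%. For Elf5 the same estimate gives 0.382%. These figures cover counting error only and say nothing of differences between animals.

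Elf1, Elf2 and Elf4 form another branch and stood close together in their differences. Elf1, known from lymphoid and many other cells, had 19.9 RPKM in Nfib-null and 12.2 RPKM in wild-type glands (log2 difference 0.28). Elf2, broadly expressed, stood at 28.9 and 17.4 RPKM (0.31). Elf4, which restrains proliferation of some lymphocytes, stood at 4.30 and 2.65 RPKM (0.22). All 3 lay within 2-fold, and with scaling to luminal markers their log2 differences were −0.81, −0.80 and −0.67.

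Ets2 reached 17.9 RPKM in wild-type and 47.4 RPKM in Nfib-null glands, place 3 of the 9 in both. Its log2 difference of 0.96 lay just inside the 2-fold limit, while values as deposited gave 1.35, quantile normalization 1.08, equal sums 1.12 and scaling to luminal markers −0.16. Ets1, a close relative known from endothelial cells and lymphocytes, had 11.2 RPKM in wild-type and 13.2 in Nfib-null glands. Its log2 difference was −0.16, with 0.22 as deposited and −1.23 with scaling to luminal markers. The RPKM of Ets2 was above that of Ets1 in both columns.

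**Figure D2:**
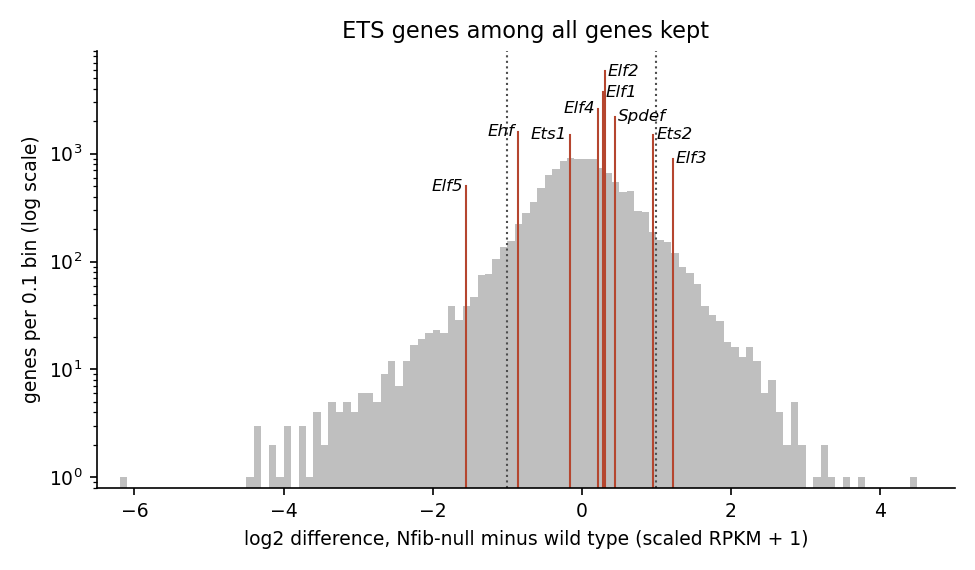
Log2 difference (Nfib-null less wild type, after adding 1 to the scaled RPKM) of the 12511 genes kept as a histogram with a log count axis, with red lines at the 9 ETS genes, whose height has no meaning, and dotted lines at 2-fold. Elf5 at −1.56 and Elf3 at 1.22 lie outside the dotted lines and Ets2 at 0.96 just inside.

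The scaling between the columns decided the calls of Elf3, Ets2, Ehf and Ets1 but not that of Elf5. Milk transcripts took up much of the wild-type RNA, with 585437 summed RPKM for 8 milk protein genes against 143840 in the Nfib-null column, so several scalings were compared. Elf5 was called lower in 5 of 5 scalings, with log2 differences of −1.15 as deposited, −1.26 with quantile normalization, −1.38 with equal sums and −2.71 with scaling to 12 luminal markers. Elf3 was called higher in 4 of 5 and stood at 0.16 with scaling to luminal markers. Ets2 was called higher in 3 of 5. Ehf and Ets1 were called lower with scaling to luminal markers alone.

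The background moved as well. As deposited, 14.4% of all genes kept were called higher and 2.95% lower, against 2 and 1 of the 9 members. With quantile normalization these were 6.75% and 5.48%, and with equal sums 9.38% and 4.38%, again with 2 members higher and 1 lower. With scaling to luminal markers 0.807% were called higher and 49.7% lower, against 0 and 3 members, the 3 being Elf5, Ehf (−1.997) and Ets1. The median log2 difference of all genes shifted by 0.35 as deposited, 0.15 with equal sums and −0.995 with luminal markers. Measured from the median gene under luminal scaling, Elf5 stood at −1.72, Ets1 at −0.23 and Elf3 at 1.15.

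**Figure D3:**
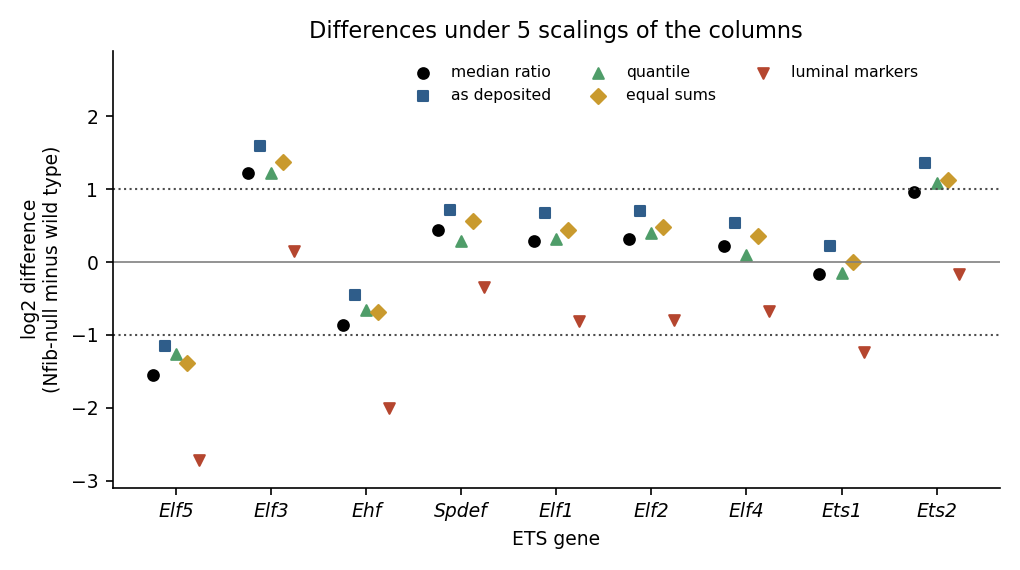
Log2 difference (Nfib-null minus wild type, with 1 RPKM added) of each ETS gene under 5 scalings of the 2 columns, with dotted lines at 2-fold. Elf5 lies below the lower line in all 5, Elf3 above the upper line in 4, and the points for luminal markers lie lowest for every gene.

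Ratios to epithelial genes of the same column avoid the scaling altogether. Krt8 and Krt18 encode keratins of luminal cells, Epcam an epithelial adhesion molecule and Cdh1 E-cadherin. Per unit of these 4 genes, Elf5 was lower in the Nfib-null column by 4.46, 5.52, 4.31 and 5.05 times in that order. Ehf was lower by 2.78, 3.44, 2.68 and 3.15 times. Elf3 was higher by 1.66, 1.34, 1.72 and 1.46 times. Ets2 was higher by 1.31, 1.06, 1.36 and 1.16 times. Spdef stood within 1.19 times either way. Elf5 RPKM was 4.25 times that of Krt8 in wild-type and 0.952 times in Nfib-null glands. The epithelial ETS genes thus divided into Elf5 and Ehf, lower relative to all 4 genes, and Elf3, higher relative to all 4.

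**Figure D4:**
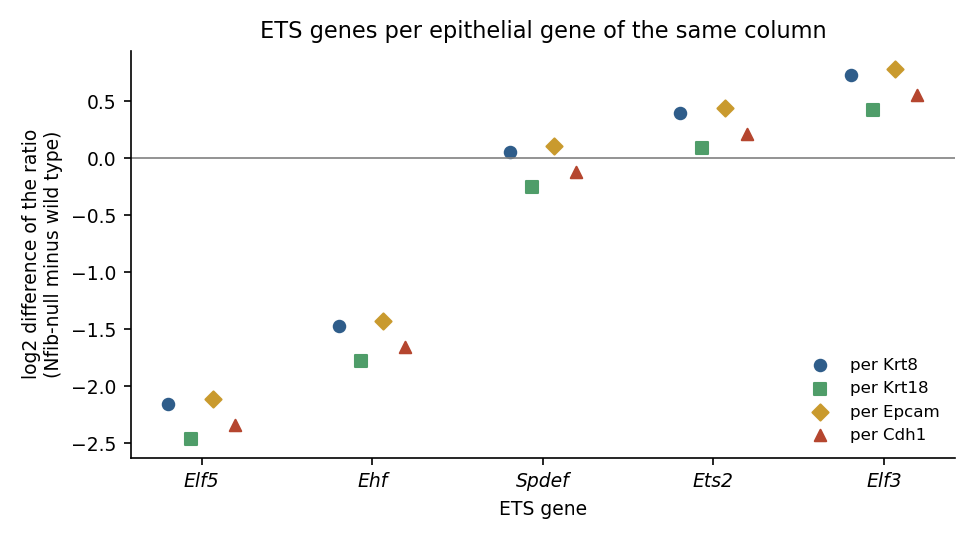
Log2 difference (Nfib-null minus wild type) of the ratio between an ETS gene and each of 4 epithelial genes in the same column, from RPKM as deposited. All 4 points of Elf5 (−2.46 to −2.11) and of Ehf (−1.78 to −1.42) lie below 0, those of Elf3 (0.42 to 0.78) above, and those of Spdef on both sides.

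Markers of the cell types of the gland differed between the columns as well. The 12 luminal markers summed to 1919 RPKM in the Nfib-null column and 895 in the wild type, with 4 called higher and 0 lower. The 10 basal markers summed to 1342 and 852 RPKM, with 0 called either way. Of 11 adipocyte markers 10 were called higher (10223 against 2092 RPKM summed), as were 8 of 8 fibroblast (1671 against 448) and 7 of 8 macrophage markers (446 against 130). None of 8 endothelial markers was called (200 against 142 RPKM summed), and 5 of 8 lymphocyte markers were lower (17.1 against 32.0). All 8 milk protein genes, listed as markers of secretory alveolar cells, were called lower (143840 against 585437 RPKM summed). Their log2 differences ran from −4.40 to −1.69, with a median of −2.97. Over all genes kept, 6.95% were called higher and 5.97% lower. With scaling to luminal markers 0 fibroblast, 0 macrophage and 5 adipocyte markers were called higher, 8 of 8 lymphocyte, 4 basal and 4 endothelial markers lower, and 2 luminal markers each way, against 0.807% of all genes higher and 49.7% lower. With values as deposited 9 luminal, 2 endothelial, all 11 adipocyte, all 8 fibroblast and all 8 macrophage markers were higher. As deposited, 3 lymphocyte markers and all 8 milk protein genes were lower, against 14.4% of all genes higher and 2.95% lower. All 8 milk protein genes were also lower with luminal scaling. With quantile normalization, which gives genes of equal rank equal values, 3 of them were. No marker of these lists was at 0 in either column. Their part in the differences of the ETS genes was not tested.

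From here on the Nfib-null value is given first. Of the other 17 ETS genes of the mouse 13 passed the minimum. Of these 0 were called higher or lower, against 6.95% and 5.97% of all genes kept. Their log2 differences lay above 0 for 9 and below 0 for 4. They ranged from −0.59 for Elk4 (6.07 against 7.33 RPKM) to 0.80 for Erf, a repressor (10.5 against 4.17 RPKM), with a median of 0.08. Of all 22 ETS genes kept, Elf5 had the lowest and Elf3 the highest log2 difference. With values as deposited 2 of the 13 passed 2-fold, Erf (1.15) and Spi1, the PU.1 gene of macrophages (listed as Sfpi1, 9.32 against 3.88 RPKM, 1.08). As deposited, 14.4% of all genes were called higher. With scaling to luminal markers 5 of the 13 were called lower, against 49.7% of all genes. Of the 4 genes below the minimum, Spib, a B cell factor, had 0.190 RPKM in Nfib-null and 1.5 in wild-type glands, and Fev was listed at 0 in both.

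**Figure D5:**
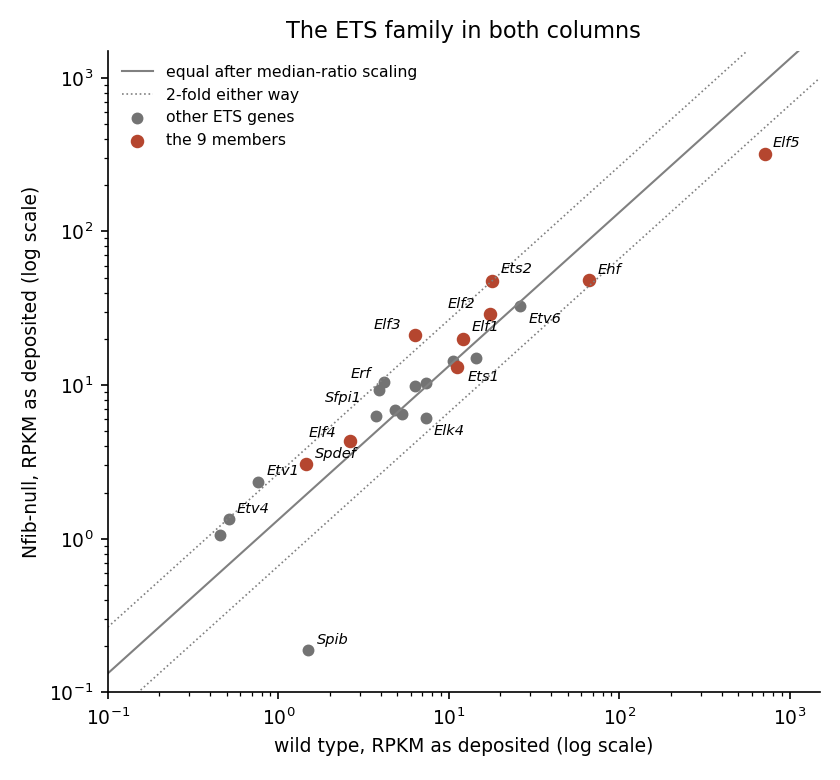
RPKM as deposited in the Nfib-null column against the wild type (log axes) for 9 members (red) and other ETS genes (grey) above 0 in both, with the line of equal scaled levels and 2-fold lines drawn without the added 1 RPKM. Elf5 lies farthest right and below the lower 2-fold line, Elf3 above the upper one, and Spib (0.190 against 1.5 RPKM) below the lower one. Etv1 (2.36 against 0.759 RPKM) passes the upper line as well but has a log2 difference of 0.70 once 1 RPKM is added.

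Regulators that act beside Elf5 in alveolar development did not follow it as a set. Of 12 listed genes 10 passed the minimum, with 2 called lower, 0 higher and a median log2 difference of −0.16. The targeted gene Nfib is among these 10 (0.30). Of all genes kept, 5.97% were called lower and 6.95% higher. The 2 regulators called lower were Id2, an inhibitor of basic helix-loop-helix factors (56.9 against 163 RPKM, −1.91), and the prolactin receptor gene Prlr (9.13 against 18.0 RPKM, −1.29, but −0.91 as deposited). The ratio of Elf5 to Prlr was 35.1 in the Nfib-null column and 39.5 in the wild type, and that of Elf5 to Id2 was 5.64 and 4.37. Cebpb, a factor needed for alveolar differentiation, was just inside the limit on the other side (47.2 against 17.9 RPKM, 0.95). It was called higher as deposited (1.35), with quantile normalization (1.08) and with equal sums (1.12), but had −0.17 with luminal scaling. Under that scaling 6 of the 10 were called lower, against 49.7% of all genes. Cebpb was named after its value had been seen. Stat5a had a log2 difference of −0.59 and Stat5b of −0.14, the latter 0.26 as deposited. Elf5 relative to Stat5a was 5.76 in Nfib-null and 11.2 in wild-type glands. Gata3, a luminal factor, had 0.47, and −0.66 with scaling to luminal markers.

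Genes that the field links to ELF5 protein went different ways. Wap, a whey protein gene with ETS sites in its promoter, was lower at 9085 against 102755 RPKM (log2 difference −3.91), and the wild-type value is tied exactly with that of another milk gene, so it is approximate. Wap RPKM per Elf5 RPKM was 28.3 in the Nfib-null column and 144 in the wild type, while Csn2, the beta-casein gene, gave 158 and 202. Kit, a receptor of luminal progenitors, was higher at 63.9 against 5.72 RPKM (2.89). Notch1 stood at 25.0 against 9.48 RPKM (0.92, and −0.16 with luminal scaling). Snai2, which ELF5 is reported to repress, stood at 10.9 against 6.60 RPKM (0.28, and −0.76 with luminal scaling). In all, 1 of the 5 was called higher and 1 lower, where 6.95% and 5.97% of all genes kept were. Notch1 passed 2-fold as deposited (1.31) and with equal sums (1.09), which made 2 higher (14.4% and 9.38% of all genes). With quantile normalization Wap came within 2-fold (−0.72) and 0 were lower (5.48% of all genes). That method gives genes of equal rank equal values, and Csn1s2a, Csn2 and Csn3 came out at 0. It therefore says little of the highest genes. With luminal scaling 2 were lower, against 49.7% of all genes.

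Of 13 genes of mucous secretory cells linked to SPDEF, 5 passed the minimum, with 2 called higher and 2 lower. The shares of all genes kept were 6.95% and 5.97%. Fcgbp, a mucus-associated protein, was higher at 212 against 13.2 RPKM (log2 difference 3.51). Agr2, a disulfide isomerase of goblet cells, was lower at 0.178 against 2.85 RPKM (−1.89), and the secretory factor gene Creb3l1 was lower at 21.1 against 33.6 RPKM (−1.04, but −0.64 as deposited, −0.92 with quantile normalization and −0.87 with equal sums). The row Clca1 was higher at 17.6 against 3.69 RPKM (1.63, but 0.61 with luminal scaling). That symbol has been moved between genes of its family, so the row may not be the goblet cell gene. A separate row of the list, Clca3, was below the minimum at 0.287 against 0.0424 RPKM. Without the row Clca1, Fcgbp would be the sole gene of the list called higher. The goblet cell genes Tff1, Tff2 and Tff3 were listed at 0 in both columns.

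Levels most like those of a member were sought among all genes kept, by the Euclidean distance over the 2 scaled log2 levels. With 2 columns, many genes can lie close by. Nearest to Elf5 were Hspa5 (337 against 706 RPKM), Acsl1 (343 against 645) and Hsp90b1 (303 against 594), at distances of 0.070, 0.17 and 0.27. Nearest to Ehf were BC031181, Ogfrl1 and Sec31a, all within 0.040. Nearest to Elf3 were Slit3, Rgma and Hdac11, all within 0.036.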

How the data were processed

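RNA of whole mammary glands without lymph nodes was sequenced on a HiSeq instrument after poly(A) selection, per the labels' protocols. The submitters' processing notes list CASAVA, TopHat and the build mm9, and the counting tool is not given in the sources used here. The values were deposited by the authors as RPKM, per the file headers, with 2 value columns for 5 libraries. In the Nfib-null column 68.2% of the 12205 values written to 10 decimals ended in the repeating digits that division by 3 leaves, against 0% of 67 in the wild-type column.

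Genes with a library-weighted mean of at least 1 RPKM were kept (12511, with 10098 removed), columns were scaled by median ratios, and 1 RPKM was added before log2. Computation used Python 3.11.15 with pandas 2.3.3 and was tested on simulated data. Single-read steps in low values, read with GENCODE lengths of genes with 1 transcript, were most frequent at about 14750000 reads for wild-type and 27250000 for Nfib-null glands, with as many libraries assumed as each group has. These depths are approximate.

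The limma fit, the replicate block and the omission of libraries that had been planned need values per library and could not be run. The members and the 14 other lists were chosen with earlier results of these data known. All members were named, and of each list the genes beyond 2-fold, at most 4, beside a few reference genes. Symbols not in the table were matched through RefSeq synonyms.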

Additional observations from a re-analysis of the deposited data

How the results depend on the processing

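No paired analysis was possible because the table holds 1 column per group, and for the same reason no library could be left out. A value was said to move when it crossed 2-fold or shifted by more than 1.5 times. The log2 difference of Elf5 stayed at least 2-fold lower under all scalings, pseudocounts and minimum means run and moved with scaling to luminal markers, to −2.71. The count of members at least 2-fold lower was 1 in most settings, 3 with luminal scaling, 2 at a limit of 1.5-fold (14.7% of all genes) and 0 at 4-fold (1.23%). The count at least 2-fold higher was 1, but 2 with values as deposited, quantile normalization, equal sums or a limit of 1.5-fold (17.1% of all genes). It was 0 with luminal scaling, a pseudocount of 5 (2.77%) or a limit of 4-fold (0.727%). With a pseudocount of 5 Elf3 had 0.92. Of 62 values of the other 8 members, 50 did not move and 12 moved. A change of sign was counted only for a called member, here Elf3, which stayed above 0. Among members not called, Spdef, Elf1, Elf2, Elf4 and Ets2 fell below 0 with luminal scaling. Ets1 rose above 0 with values as deposited. With a minimum mean of 5 RPKM 7 of the 9 members were left. The spread between libraries is unknown, so the read depth alone does not set the precision of these values.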

Other observations

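Other transcription factors of simple epithelia were also compared. Of 13 listed, 11 passed the minimum, with 3 called higher, 0 lower and a median log2 difference of 0.19. Of all genes kept, 6.95% were called higher and 5.97% lower. Klf4, a factor of differentiating epithelia, had 19.6 RPKM in Nfib-null and 3.85 in wild-type glands (1.73), Foxa1, a partner of the oestrogen receptor, at 3.79 against 0.816 (1.14) and Ovol2, a keeper of the epithelial state, at 3.02 against 0.676 (1.02). With quantile normalization 2 were called higher (6.75% of all genes), with Ovol2 at 0.90. With scaling to luminal markers 0 were higher and 3 lower, against 0.807% and 49.7% of all genes. Grhl1, a grainyhead factor, stood at 22.2 against 32.8 RPKM (−0.94), near the log2 difference of Ehf.

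Of 4 protease genes known for ETS sites in their promoters, 1 was called higher, where 6.95% of all genes kept were. With values as deposited 3 of the 4 were called higher (14.4% of all genes). With scaling to luminal markers 0 were higher and 1 lower, against 0.807% and 49.7% of all genes. Mmp3, the stromelysin gene, had 46.6 RPKM in Nfib-null and 16.9 in wild-type glands (log2 difference 1.02, and −0.10 with scaling to luminal markers). Plau, the urokinase gene, stood at 20.2 against 9.50 RPKM (0.63) and Mmp9 at 5.35 against 2.17 RPKM (0.69). Mmp13 went the other way, at 0.948 against 1.32 RPKM (−0.47, and −1.08 with scaling to luminal markers).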
